A study of Homo sapiens with 8 samples.

Results

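The mitosis genes described here are 49 genes that act from entry into mitosis to the separation of the daughter cells, given by name and matched to the gene symbols of the deposited expression table. All 49 were found among its 34415 genes, and all 49 passed the filter used for testing, a mean of at least 1 FPKM (fragments per kilobase of transcript, scaled to the library's total) over the libraries, which 10720 genes passed. The 49 genes were proposed with the values of the estradiol comparison already known, so their differences in that comparison are a description and not a test.

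RNA was sequenced from TeloHAEC, a line made by immortalising endothelial cells of the human aorta, to ask what the hormone estradiol does in it. There were 4 control libraries and 4 estradiol libraries, all of wild-type genotype (WT) and all grown with palmitic acid (PA), a saturated fatty acid, in the medium. The groups follow the sample titles. A separate treatment label gives "Control" for the first group and names only the palmitic acid for the second, although the titles give palmitic acid to both. Neither doses nor exposure time are stated in the labels. Nothing says that the replicates were separate cultures, so every standard deviation and standard error below measures the spread between libraries of a single line, which may be technical.

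Cells enter mitosis when cyclin B and the kinase CDK1 form an active complex, which the CDC25 phosphatases switch on and which cooperates with the Aurora and Polo-like kinases. Kinetochores then attach chromosomes to the spindle, the spindle checkpoint holds back the anaphase-promoting complex (APC/C) until attachment is complete, and the APC/C with CDC20 marks cyclin B and securin for destruction. Many of these genes are repressed in resting cells and switched on late in the cell cycle through a promoter element called the CHR, bound by the MuvB complex, often beside CCAAT boxes bound by NF-Y. Their mRNA is therefore widely used as a mark of dividing cells. In RNA from a whole culture, a change in the number of dividing cells and a change in mRNA per dividing cell cannot be told apart.

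Promoters of RefSeq (GRCh38.p14, from 250 bases before to 50 bases after the start of the gene) were at hand for 41 of the 49 members. Those of AURKA, BIRC5, BUB3, FOXM1, RACGAP1, TPX2, TTK and UBE2C were not analysed here. For each functional class, the member with the highest level that had a long enough upstream stretch outside protein-coding exons was taken, which gave 9 members, and 5 of these stretches are shown. They were chosen after the values were seen, because they carry the elements the group shares. A further reason was that TOP2A and DLGAP5 on one side and CDC20 on the other differ in the library pattern described below. No relation between promoter sequence and that library pattern was tested. Among the stretches not shown, that of CCNB1, which ends at position -141 from the start, held neither a CCAAT box nor a CHR. Nearer the start, outside that stretch, the CCNB1 promoter holds CCAAT boxes at -87 and -55 and a CHR form at -30. It is counted below with the promoters that hold them. Capitals mark the CCAAT box, which reads as ATTGG on the other strand, and the CHR forms TTTGAA, which reads as TTCAAA there, and the palindrome TTTAAA. The stretch of CDC20 is chr1:43358835-43358954 on the plus strand, NEK2 is chr1:211675631-211675750 on the minus strand, CENPA is chr2:26785877-26785996 on the plus strand, DLGAP5 is chr14:55191679-55191798 on the minus strand, and TOP2A is chr17:40417951-40418070 on the minus strand.
CDC20: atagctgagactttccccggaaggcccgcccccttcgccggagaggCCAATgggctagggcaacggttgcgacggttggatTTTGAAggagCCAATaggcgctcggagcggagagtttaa
NEK2: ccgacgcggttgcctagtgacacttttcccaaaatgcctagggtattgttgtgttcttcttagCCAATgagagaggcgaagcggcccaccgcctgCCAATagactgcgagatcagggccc
CENPA: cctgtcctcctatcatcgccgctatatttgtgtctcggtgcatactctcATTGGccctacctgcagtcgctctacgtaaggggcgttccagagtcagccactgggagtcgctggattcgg
DLGAP5: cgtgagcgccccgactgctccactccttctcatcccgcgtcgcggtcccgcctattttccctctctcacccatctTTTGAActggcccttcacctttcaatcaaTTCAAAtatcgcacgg
TOP2A: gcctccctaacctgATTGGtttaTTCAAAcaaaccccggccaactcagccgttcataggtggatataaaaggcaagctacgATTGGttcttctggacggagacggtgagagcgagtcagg

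The CDC20 stretch holds a CHR between a pair of CCAAT boxes, that of TOP2A holds a pair of CCAAT boxes with a CHR beside the outer one, and that of DLGAP5 holds the CHR on both strands. The NEK2 stretch holds a pair of CCAAT boxes and that of CENPA a single one. Outside its printed stretch the CENPA window also holds both CHR forms and a further CCAAT box, and is counted with the promoters that hold them. Over the 41 promoters, searched on both strands, CCAAT was found in 30 (73.2%), against 35.7% of all 27305 promoters in the RefSeq table and 37.3% of the 8746 promoters of tested genes. At least 2 CCAAT matches were found in 17 members (41.5%), against 11.3% of all promoters and 14.0% of those of tested genes. TTTGAA was found in 28 members (68.3%), against 15.4% of all promoters and 9.56% of those of tested genes. TTTAAA was found in 14 members (34.1%), against 12.3% and 7.20% in the same order. CCAAT together with TTTGAA was found in 22 members (53.7%), against 6.08% of all promoters. The 3 members with neither CCAAT nor a CHR form in the window were CDC25B, CDC25C and CKAP2. TTTGAA and CCAAT can share at most 1 base, at their ends. A match is a description of the sequence and not a measured binding site.

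The matches were compared by position, over ranges chosen after the members' positions were seen. Of 60 CCAAT matches, 47 (78.3%) lay between 120 and 21 bases before the start, with a median of 72 bases before it. In all promoters it was 48.0% of 14219 CCAAT matches, with a median of 97 bases before the start. In promoters of tested genes it was 53.3% of 5172, with the same median of 97. Of 35 TTTGAA matches, 25 (71.4%) lay within 50 bases of the start, with a median of 28 bases before it, against 27.0% of the 4941 TTTGAA matches in all promoters, with a median of 127 bases before the start. The estrogen response element that estrogen receptors bind, searched as the arm GGTCA followed by 3 free bases and its own reverse complement, was found in 0 of the 41 windows, against 0.0659% of all promoters (18 of 27305). The single arm GGTCA on either strand, which every full element contains, was found in 13 windows (31.7%). It was found in 37.7% of all promoters and 34.3% of those of tested genes. These windows cover only the bases next to the start, and say nothing of elements elsewhere.

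**Figure D1:**
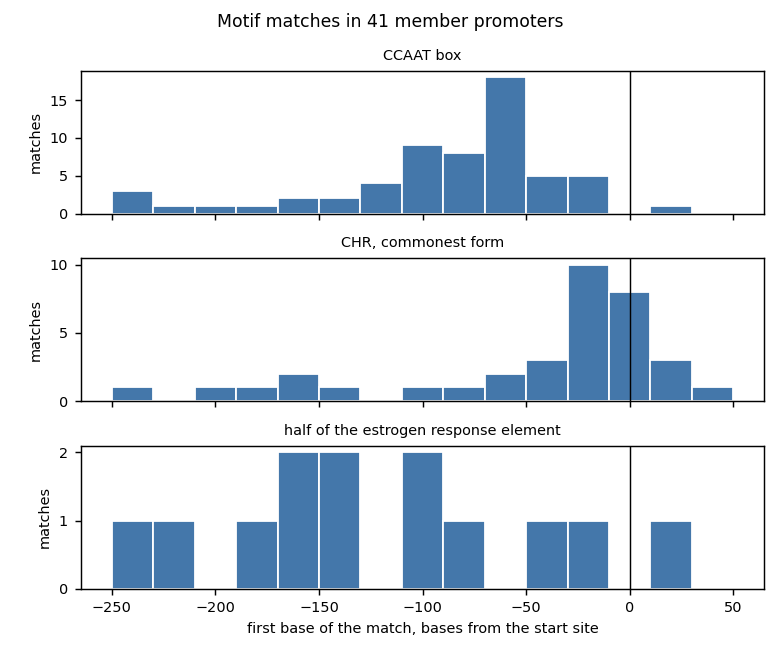
Matches of CCAAT, of the CHR form TTTGAA and of the single arm of the estrogen response element (vertical axes, number of matches on either strand) against the position of the first matching base relative to the gene start (horizontal axis, bases) in 41 member promoters. The CCAAT matches gather upstream, with a median of 72 bases before the start, and the TTTGAA matches gather closer, with a median of 28 bases before it.

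The recovered depth was 33421051 to 39899258 reads per library. Endothelial identity was checked with 14 markers, of which 12 reached a mean of 1 FPKM, among them CDH5, PECAM1 and ESAM, while VWF and EMCN did not. Their summed level was 508 to 698 FPKM in control and 512 to 661 FPKM in estradiol libraries. Summed macrophage markers (2 of 12 reached 1 FPKM, CD68 and LAPTM5, with TYROBP and CD163 at 0 in all libraries) were 79.3 to 97.1 and 82.3 to 94.6 FPKM in the same order. Epithelial markers (5 of 10, all keratins or CLDN7) were 95.4 to 146 and 97.2 to 134 FPKM, and fibroblast and smooth muscle markers (2 of 12, ACTA2 and TAGLN, with LUM at 0) were 15.4 to 21.5 and 14.2 to 22.5 FPKM. The ranges of control and estradiol libraries overlapped for all 4 marker lists.

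Control replicate 3 and estradiol replicate 4 stood apart from the other 6 libraries across the transcriptome, at 27.8 and 27.5 on a first principal component that held 68.7% of the variance, where the others lay between -13.1 and -3.29. Because there was 1 such library in each group, the differences below are given with all 8 libraries and then with the other 6. These libraries were singled out from the values of the whole table, not by their labels.

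Among the mitosis genes the 2 libraries followed the base composition of the transcripts. The difference between their mean and the mean of the other 6 libraries ranged from 0.72 on the log2(FPKM + 1) scale for CENPE, a kinetochore motor whose transcripts have a GC content of 35.3%, to -0.51 for CDC20, the APC/C activator. NUF2 (0.71) and TTK (0.70) were next to CENPE, and CDC25B and AURKB (both -0.45) next to CDC20. Across the 49 members Pearson's r with GC content was -0.93 and Spearman's rho -0.93, and across the 10250 tested genes with a GC content Pearson's r was -0.86. These are correlations across genes that share the same 8 libraries, and genes are not independent replicates.

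These libraries ordered AT-rich and GC-rich mitosis genes in opposite ways. The 2 highest of the 8 values belonged to control replicate 3 and estradiol replicate 4 in 25 of the 49 members (51.0%), against 34.6% of all tested genes. The GC content of those 25 ranged from 35.3% to 47.0%. The same libraries held the 2 lowest values in 12 members (24.5%), against 43.9% of all tested genes, with a GC content of 45.5% to 59.9%. The median GC content of the members, 45.0%, was lower than the 49.5% of all tested genes.

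**Figure D2:**
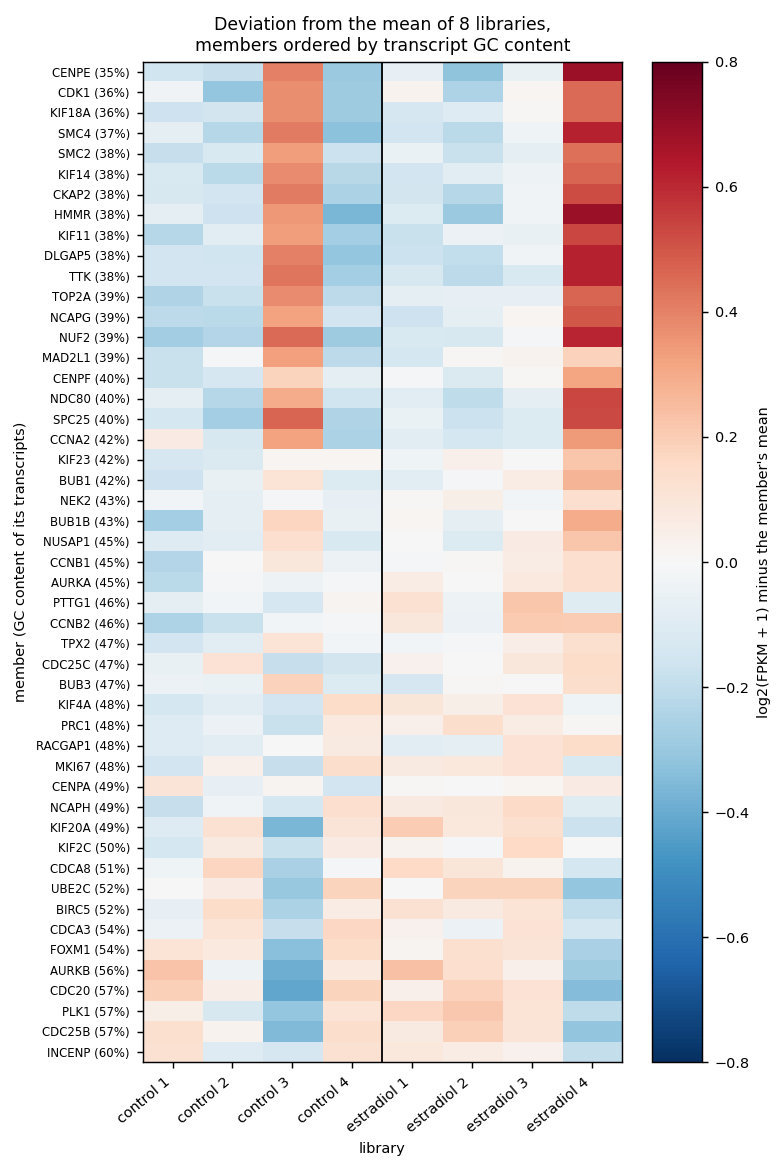
Deviation of log2(FPKM + 1) in each of 8 libraries (columns) from the member's own mean (colour), for the 49 members ordered by the GC content of their transcripts (rows, lowest at the top). Control replicate 3 and estradiol replicate 4 are above the mean in the AT-rich members at the top and below it in the GC-rich members at the bottom.

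**Figure D3:**
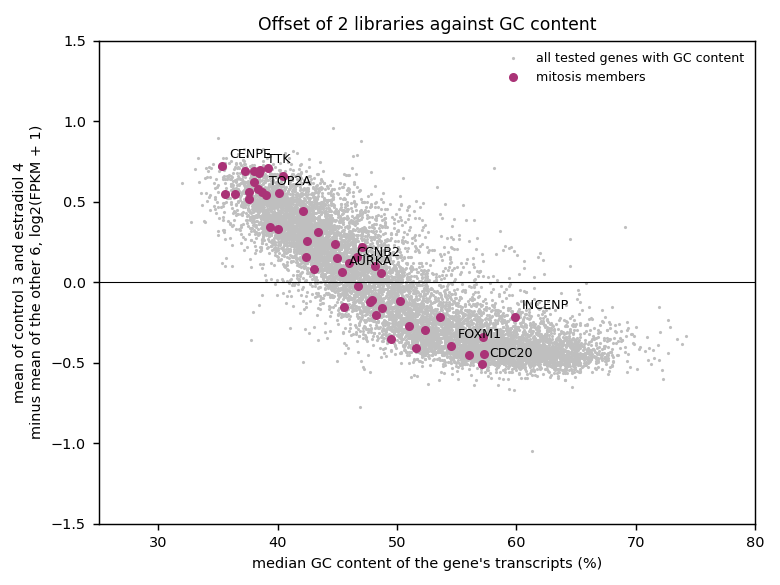
Mean of control replicate 3 and estradiol replicate 4 minus the mean of the other 6 libraries (vertical axis, log2(FPKM + 1)) against the median GC content of a gene's transcripts (horizontal axis, percent), for the tested genes in grey and the 49 members in purple. The members run from 0.72 (CENPE) down to -0.51 (CDC20) as GC content rises, within the cloud of the other genes.

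In levels per length, the mitosis genes spanned a wide range. The mean over the 8 libraries ran from 1.72 FPKM for NCAPH, a condensin subunit, to 44.2 FPKM for CDC20, with a median of 10.3 FPKM, against 8.84 FPKM for all tested genes. CDC20 was followed by CCNB1, TPX2, FOXM1, SMC4 and PRC1. CCNB1 at 41.5 ± 4.00 and CDC20 at 44.4 ± 8.11 FPKM in control libraries (SD, n = 4) overlapped in spread, but their order depended on the library. CDC20 was above CCNB1 in control replicates 1, 2 and 4 and estradiol replicates 1 to 3. It was below CCNB1 in control replicate 3 and estradiol replicate 4. FOXM1 was above both SMC4 and PRC1 in those same 6 libraries, and below both in control replicate 3 and estradiol replicate 4. No difference in level between members was tested. Recovered reads ranged from 115 in the shallowest library for SPC25 to 8844 for SMC4, which puts the counting error between 9.33% and 1.06%. The median coefficient of variation of a member was 13.6% over 8 libraries and 7.10% over the 6.

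**Figure D4:**
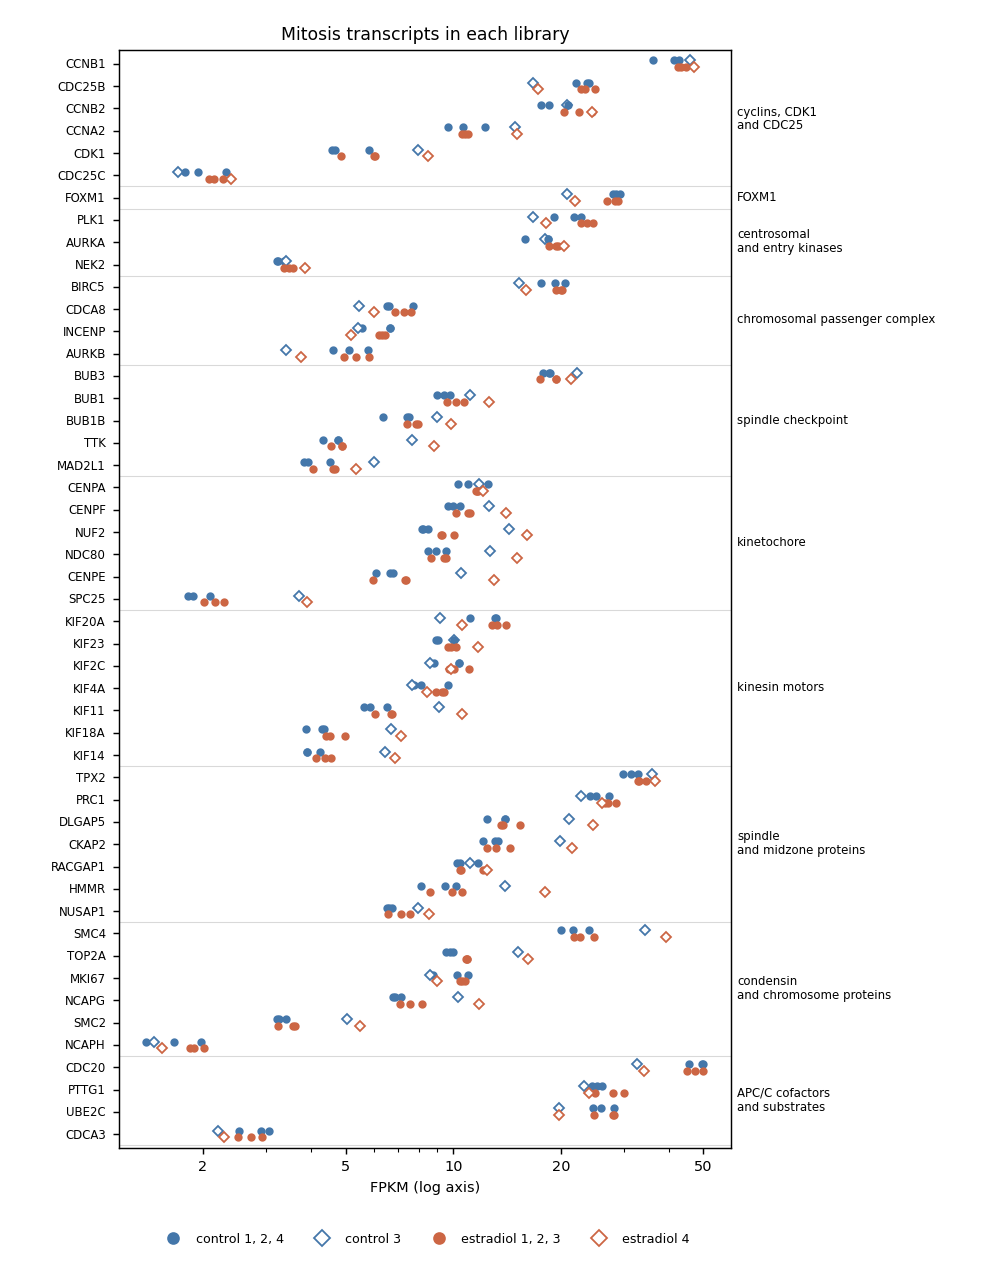
FPKM (horizontal log axis) of the 49 mitosis genes in each of the 8 libraries, grouped by function, with control libraries in blue, estradiol libraries in red and open diamonds for control replicate 3 and estradiol replicate 4. In SMC4, NUF2 and TOP2A the diamonds lie above the other 6 libraries, and in CDC20, FOXM1 and CDC25B below them.

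Between estradiol and control libraries the mitosis genes differed little, and most differences were small positive values. Of the 49 members, 44 (89.8%) had a difference above 0, against 49.5% of all tested genes, and the median difference was 0.096 on the log2(FPKM + 1) scale. Without control replicate 3 and estradiol replicate 4, 45 members (91.8%) were above 0, against 48.2% of all genes tested there, with a median of 0.077. Between those 2 libraries alone, estradiol replicate 4 was above control replicate 3 in 45 members (91.8%), against 54.3% of all tested genes, with a median of 0.11, and 41 members were positive both in the 6 libraries and in this pair. The members were proposed from this comparison, so nothing is read from these counts.

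The size of the shift depended on whether the libraries that stood apart were left out 1 at a time or together. Leaving out only 1 of them leaves the other without its counterpart in the opposite group. With both left out the median was 0.077. Without estradiol replicate 4 the median was 0.037 and 30 members were above 0, and without control replicate 3 the median was 0.13 and 40 members were above 0. Summed over the 49 members, the level was 610, 618, 661 and 630 FPKM in control replicates 1 to 4, and 644, 645, 673 and 718 FPKM in estradiol replicates 1 to 4. Estradiol replicate 4 had the highest sum, and control replicate 3 was above estradiol replicates 1 and 2, so the groups overlapped with 8 libraries and did not with the 6. After removal of each library's GC trend, 47 members were above 0 and the median was 0.082. Across the 49 members the difference had a Pearson's r with GC content of -0.46 with 8 libraries and -0.38 with 6, a description across genes that share these libraries.

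No gene passed the test across the transcriptome. With limma and Benjamini-Hochberg adjustment, 0 of 10720 genes were higher with estradiol at an adjusted p under 0.05 and 0 were lower (0% each way), and 26 genes had an unadjusted p under 0.05. With limma-voom on recovered reads the counts were 0 and 23. If no gene differed, a calibrated test would put a share of about 0.05 of the genes under 0.05. The 26 and 23 genes are far fewer, so with 8 libraries these tests were conservative. The absence of calls is therefore weak evidence that no gene differs. In the 6 libraries 413 of 10733 genes had an unadjusted limma p under 0.05. The median standard error of a member was 0.13 with 8 libraries and 0.067 with 6. Among the members 0 were called and 1, CCNB2, had an unadjusted limma p under 0.05 with 8 libraries. In the 6 libraries 3 members did, and 3 with the GC trend removed, and 0 were called in either fit. With 8 libraries the 95% interval of a member's difference had a median width to either side of 0.28, and 48 of the 49 intervals contained 0. The highest upper bound was 0.64, so these intervals leave room for moderate differences in either direction. No member was shown to rise or fall.

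**Figure D5:**
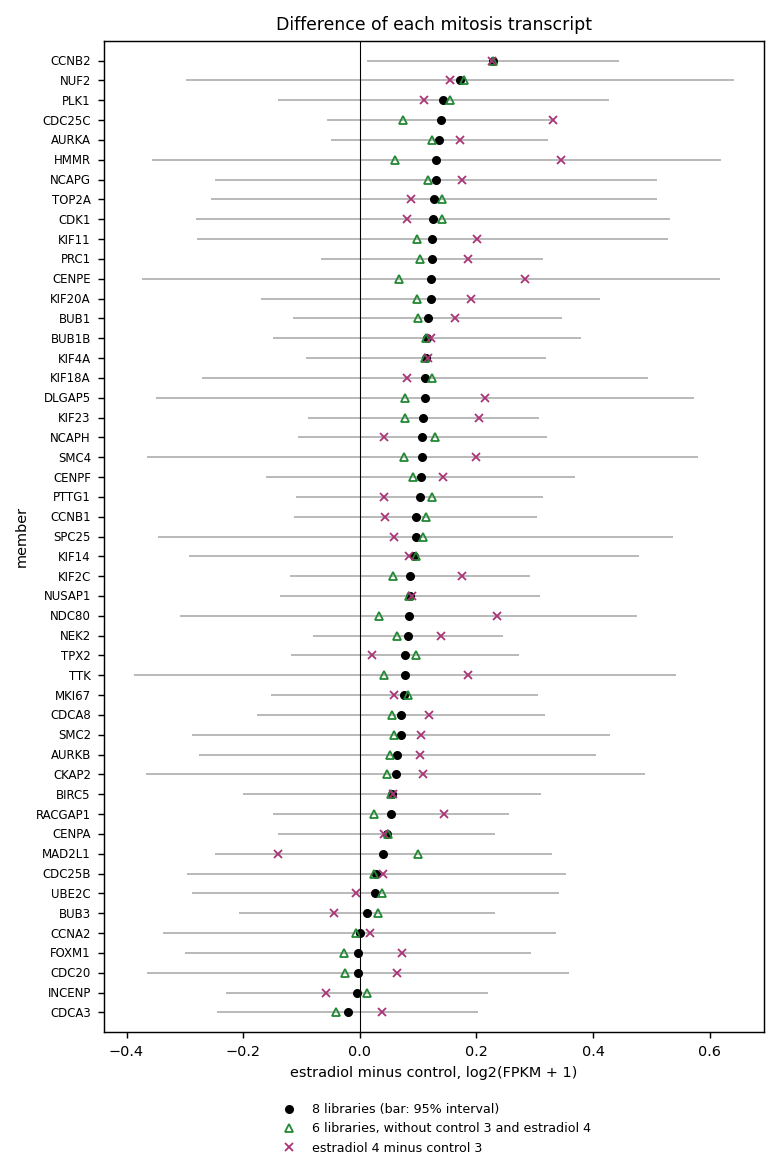
Difference between estradiol and control libraries (horizontal axis, log2(FPKM + 1)) for each of the 49 members, with black points and 95% intervals for 8 libraries, green triangles for the 6 that remain when control replicate 3 and estradiol replicate 4 are left out, and purple crosses for estradiol replicate 4 minus control replicate 3. In the 8 libraries, 44 of the points lie above 0 and 48 of the intervals contain 0.

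The cyclins and their kinase came first in mitotic entry. CCNB2, a B-type cyclin that partners CDK1, read 17.6, 18.5, 20.7 and 21.0 FPKM in control replicates 1 to 4 and 22.5, 20.4, 24.5 and 24.4 FPKM in estradiol replicates 1 to 4. Estradiol replicates 1, 3 and 4 lay above all controls and estradiol replicate 2 among them, so the groups overlapped. The difference was 0.23 ± 0.10 (SE, 95% interval 0.01 to 0.44), the largest of the 49, and it was 0.23 in the 6 libraries and 0.23 between the libraries that stood apart. CCNB1, the other B-type cyclin, read 36.2, 42.8, 45.7 and 41.4 FPKM in control and 42.4, 43.2, 44.6 and 47.2 FPKM in estradiol libraries. Control replicate 1 was the lowest and estradiol replicate 4 the highest, the groups overlapped, and the difference was 0.10 ± 0.09 (SE), and 0.11 in the 6 libraries.

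CDK1 itself, the kinase of mitotic entry, averaged 5.76 ± 1.57 FPKM in control and 6.35 ± 1.52 FPKM in estradiol libraries (SD, n = 4 each), a difference of 0.13 ± 0.18 (SE). CCNA2, the cyclin of S phase and early mitosis, averaged 11.9 ± 2.30 and 11.9 ± 2.17 FPKM, with a difference of -0.00046 ± 0.15. The CDC25 phosphatases remove the inhibitory phosphates from CDK1. CDC25B averaged 21.6 ± 3.38 and 22.0 ± 3.34 FPKM, and CDC25C 1.93 ± 0.277 and 2.22 ± 0.144 FPKM, with differences of 0.03 ± 0.15 and 0.14 ± 0.09. In the 6 libraries the differences were 0.14 for CDK1, -0.0063 for CCNA2, 0.02 for CDC25B and 0.07 for CDC25C. Over the 6 genes of this class the median difference was 0.11, with 5 above 0, and in the 6 libraries 0.09, also with 5 above 0.

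FOXM1, the forkhead factor that drives many of these genes late in the cell cycle, read 28.6, 27.9, 20.8 and 29.3 FPKM in control and 26.9, 28.9, 28.4 and 21.9 FPKM in estradiol libraries. The lowest were control replicate 3 and estradiol replicate 4, the other 6 lay between 26.9 and 29.3, and the groups overlapped. The difference was -0.0024 ± 0.13 (SE) with 8 libraries and -0.03 with 6. FOXM1 transcripts share 15.9% of their exon bases with ITFG2 on the opposite strand, and no label says whether counting used the strand, so its level is uncertain.

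AURKA, the Aurora kinase of the centrosome and spindle poles, was the only member whose groups did not overlap. It read 15.8, 18.4, 18.0 and 18.4 FPKM in control and 19.3, 18.5, 19.6 and 20.4 FPKM in estradiol libraries. The highest control and the lowest estradiol value were 18.4 and 18.5 FPKM, a gap smaller than the counting error of 2.31% in the library with fewest AURKA reads. The difference was 0.14 ± 0.08 (SE), and 0.12 in the 6 libraries. With 1 of 49 (2.04%), the share of members with separate groups stood beside 0.308% of all tested genes separated with estradiol higher and 0.224% with estradiol lower.

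In the 6 libraries, 5 members (10.2%) had groups that did not overlap, all with estradiol higher, namely AURKA, NUF2, KIF18A, TPX2 and TOP2A. Of all genes tested there, 4.55% were separated with estradiol higher and 4.91% with estradiol lower. PLK1, the Polo-like kinase of mitotic entry, read 21.7, 19.1, 16.7 and 22.7 FPKM in control and 23.7, 24.6, 22.7 and 18.1 FPKM in estradiol libraries. In each group the library that stood apart was the lowest, the groups overlapped, and the difference was 0.14 ± 0.13 (SE), and 0.15 in the 6 libraries. PLK1 shares 11.6% of its exon bases with a gene on the opposite strand that has no row among the deposited values. NEK2, a kinase that splits the centrosomes, averaged 3.31 ± 0.0971 and 3.57 ± 0.215 FPKM, with a difference of 0.08 ± 0.07, and of 0.06 in the 6 libraries. The median of these 3 kinases was 0.14, all above 0, and 0.12 in the 6 libraries.

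The chromosomal passenger complex places Aurora B at centromeres and later at the midzone. BIRC5, which encodes its subunit survivin, read 17.6, 20.5, 15.3 and 19.3 FPKM in control and 20.1, 19.4, 20.0 and 16.0 FPKM in estradiol libraries. CDCA8, which encodes borealin, read 6.54, 7.70, 5.44 and 6.63 FPKM in control and 7.61, 7.27, 6.88 and 5.99 FPKM in estradiol libraries. In both genes control replicate 3 was the lowest, estradiol replicate 4 the next lowest and control replicate 2 the highest, so the groups overlapped. The differences were 0.05 ± 0.11 for BIRC5 and 0.07 ± 0.11 for CDCA8 (SE), and 0.05 and 0.06 in the 6 libraries.

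AURKB, the kinase of the complex, averaged 4.72 ± 0.988 FPKM in control and 4.97 ± 0.889 FPKM in estradiol libraries (SD, n = 4 each), with a difference of 0.06 ± 0.15 (SE), and of 0.05 in the 6 libraries. INCENP, its scaffold, averaged 6.07 ± 0.680 and 6.04 ± 0.591 FPKM, with a difference of -0.0047 ± 0.10 and of 0.01 in the 6 libraries. INCENP had the highest GC content of the members. Over the 4 genes the median difference was 0.06, with 3 above 0, and in the 6 libraries 0.05, with 4 above 0. Without control replicate 3 alone the median was -0.03.

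Spindle checkpoint genes encode the proteins that hold anaphase until every kinetochore is attached. BUB1, a checkpoint kinase, read 9.01, 9.77, 11.1 and 9.40 FPKM in control and 9.59, 10.2, 10.7 and 12.6 FPKM in estradiol libraries. Estradiol replicate 4 was the highest and control replicate 3 the next, the groups overlapped, and the difference was 0.12 ± 0.10 (SE), and 0.10 in the 6 libraries. BUB3, which brings BUB1 and BUBR1 to the kinetochore, read 18.6, 18.5, 22.1 and 17.8 FPKM in control and 17.5, 19.4, 19.4 and 21.4 FPKM in estradiol libraries. Control replicate 3 and estradiol replicate 4 were again the highest, and the difference was 0.01 ± 0.10, and 0.03 in the 6 libraries.

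BUB1B, which encodes BUBR1, averaged 7.57 ± 1.08 and 8.27 ± 1.09 FPKM (SD, n = 4 each), with a difference of 0.12 ± 0.12 (SE). MAD2L1, the MAD2 protein that binds CDC20, averaged 4.56 ± 0.999 and 4.67 ± 0.528 FPKM, with a difference of 0.04 ± 0.13. TTK, the kinase MPS1 that starts checkpoint signalling, averaged 5.38 ± 1.53 and 5.80 ± 2.04 FPKM, with a difference of 0.08 ± 0.21. The 6-library differences were 0.11 for BUB1B, 0.10 for MAD2L1 and 0.04 for TTK. Most of the spread of TTK lay in 2 libraries: it read 7.66 FPKM in control replicate 3 and 8.85 FPKM in estradiol replicate 4, and between 4.32 and 4.90 FPKM in the others. The class median was 0.08, with 5 of 5 above 0, and in the 6 libraries 0.10, with 5 of 5. It was -0.02 without estradiol replicate 4 alone and just below 0 without control replicate 4 alone.

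At the kinetochore, the structure that ties a chromosome to the spindle, CENPA, the histone H3 variant of the centromere, read 12.5, 11.0, 11.8 and 10.3 FPKM in control and 11.7, 11.6, 11.7 and 12.1 FPKM in estradiol libraries. All estradiol values lay inside the range of the controls, and the difference was 0.05 ± 0.08 (SE), and 0.05 in the 6 libraries. CENPF, a large protein of the outer kinetochore, read 9.66, 10.0, 12.6 and 10.5 FPKM in control and 11.0, 10.2, 11.2 and 14.0 FPKM in estradiol libraries. Estradiol replicate 4 and control replicate 3 were the highest, the groups overlapped, and the difference was 0.10 ± 0.12, and 0.09 in the 6 libraries.

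NDC80, NUF2 and SPC25 encode subunits of the NDC80 complex, which grips microtubule ends. NUF2 had the largest difference of the class, 0.17 ± 0.21 (SE), and 0.18 in the 6 libraries. It read 8.24, 8.51, 14.4 and 8.20 FPKM in control and 9.31, 9.26, 10.1 and 16.1 FPKM in estradiol libraries, so that without control replicate 3 the estradiol values were all higher, and with it they overlapped. NDC80 averaged 9.91 ± 1.89 and 10.7 ± 2.97 FPKM (SD, n = 4 each), a difference of 0.08 ± 0.17. SPC25 averaged 2.37 ± 0.895 and 2.59 ± 0.879 FPKM, a difference of 0.10 ± 0.20. Their 6-library values were 0.03 and 0.11. CENPE, the kinetochore motor that moves chromosomes to the metaphase plate, averaged 7.50 ± 2.02 and 8.42 ± 3.12 FPKM, with a difference of 0.12 ± 0.22 and of 0.07 in the 6 libraries. The class median was 0.10, with 6 of 6 above 0, and in the 6 libraries 0.08, with 6 of 6. It was -0.03 without estradiol replicate 4 alone and 0.23 without control replicate 3 alone.

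Kinesins are the motors that build the spindle and drive chromosome movement and cytokinesis. KIF20A, a motor of the midzone, read 11.2, 13.2, 9.16 and 13.1 FPKM in control and 14.0, 12.9, 13.3 and 10.6 FPKM in estradiol libraries. Both libraries that stood apart were the lowest, the groups overlapped, and the difference was 0.12 ± 0.13 (SE), and 0.10 in the 6 libraries. KIF23, the motor of centralspindlin, read 8.93, 9.06, 10.0 and 10.0 FPKM in control and 9.65, 10.2, 9.87 and 11.7 FPKM in estradiol libraries. Estradiol replicate 4 was the highest and control replicate 1 the lowest, the groups overlapped, and the difference was 0.11 ± 0.09, and 0.08 in the 6 libraries.

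KIF11, the motor that pushes the spindle poles apart, averaged 6.78 ± 1.60 and 7.52 ± 2.08 FPKM (SD, n = 4 each), with a difference of 0.12 ± 0.18 (SE). KIF14, a motor of cytokinesis, averaged 4.62 ± 1.22 and 4.99 ± 1.27 FPKM, and KIF18A, which damps chromosome movement at the plate, 4.80 ± 1.27 and 5.26 ± 1.27 FPKM. Their differences were 0.09 ± 0.17 and 0.11 ± 0.17. KIF2C, a microtubule depolymerase of the centromere, averaged 9.54 ± 0.959 and 10.2 ± 0.623 FPKM, and KIF4A, a chromokinesin, 8.31 ± 0.934 and 9.03 ± 0.456 FPKM. Those differences were 0.09 ± 0.09 and 0.11 ± 0.09. In the 6 libraries the differences of these 5 motors ran from 0.06 for KIF2C to 0.12 for KIF18A. The median of the 7 kinesins was 0.11, with all above 0, and 0.10 in the 6 libraries.

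Among the spindle and midzone proteins, TPX2, which activates AURKA on spindle microtubules, read 29.8, 31.3, 36.0 and 32.7 FPKM in control and 32.8, 33.1, 34.6 and 36.5 FPKM in estradiol libraries. Estradiol replicate 4 and control replicate 3 were the highest, and without them the estradiol libraries were all above the controls, with 32.7 and 32.8 FPKM the nearest values. The difference was 0.08 ± 0.09 (SE), and 0.10 in the 6 libraries. PRC1, which bundles the midzone, read 24.0, 25.1, 22.8 and 27.3 FPKM in control and 26.6, 28.6, 27.0 and 26.0 FPKM in estradiol libraries. Control replicate 4 lay among the estradiol values and the other controls below them, and the difference was 0.12 ± 0.09, and 0.10 in the 6 libraries. PRC1 shares 57.6% of its exon bases with a same-strand gene model that has no row among the deposited values. It shares 7.35% with PRC1-AS1 on the opposite strand, which has one. The authors' annotation and strand setting are not given, so whether its level is affected is not known.

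HMMR and DLGAP5, both spindle microtubule proteins, averaged 10.4 ± 2.49 and 15.3 ± 3.85 FPKM in control and 11.8 ± 4.23 and 16.8 ± 5.20 FPKM in estradiol libraries (SD, n = 4 each). The difference of HMMR was 0.13 ± 0.22 (SE) with 8 libraries, 0.06 with 6 and 0.34 between the libraries that stood apart. That of DLGAP5 was 0.11 ± 0.21, 0.08 and 0.21 in the same order. CKAP2, a microtubule stabiliser, averaged 14.6 ± 3.55 and 15.4 ± 4.18 FPKM, and NUSAP1, which links microtubules to chromosomes, 6.97 ± 0.681 and 7.46 ± 0.825 FPKM, with differences of 0.06 ± 0.19 and 0.09 ± 0.10. NUSAP1 shares 62.2% of its exon bases with a same-strand gene model that has no row among the deposited values. Whether its level is affected is likewise not known. RACGAP1, the other centralspindlin subunit, averaged 10.9 ± 0.679 and 11.4 ± 1.05 FPKM, with a difference of 0.05 ± 0.09. Their 6-library differences were 0.05 for CKAP2, 0.09 for NUSAP1 and 0.02 for RACGAP1. The class median was 0.09, with 7 of 7 above 0, and in the 6 libraries 0.08, with 7 of 7. It was 0.01 without estradiol replicate 4 alone.

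Condensin folds chromosomes for segregation. SMC4, one of its ATPase subunits, read 24.0, 21.5, 34.2 and 20.0 FPKM in control and 22.6, 21.7, 24.8 and 39.4 FPKM in estradiol libraries. Control replicate 3 and estradiol replicate 4 were the highest and the other 6 lay between 20.0 and 24.8, with a difference of 0.11 ± 0.21 (SE), and of 0.08 in the 6 libraries. NCAPH, the kleisin of condensin I, read 1.39, 1.66, 1.46 and 1.98 FPKM in control and 1.84, 1.89, 2.01 and 1.53 FPKM in estradiol libraries. The groups overlapped, control replicate 1 was the lowest, and the difference was 0.11 ± 0.10, and 0.13 in the 6 libraries. SMC4 shares 18.5% of its exon bases with TRIM59 and 7.18% with IFT80, both on the opposite strand.

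SMC2, the partner of SMC4, averaged 3.73 ± 0.877 and 3.98 ± 1.02 FPKM (SD, n = 4 each), and NCAPG, a regulatory subunit, 7.79 ± 1.71 and 8.66 ± 2.14 FPKM, with differences of 0.07 ± 0.16 and 0.13 ± 0.17 (SE). NCAPG shares 33.1% of its exon bases with LCORL on the opposite strand. TOP2A, the topoisomerase that untangles sister chromatids, read 9.55, 10.0, 15.2 and 9.80 FPKM in control and 10.9, 10.9, 10.9 and 16.2 FPKM in estradiol libraries. Its promoter stretch is shown above. Without the libraries that stood apart the estradiol values were all higher, and with them the groups overlapped, with a difference of 0.13 ± 0.17. MKI67, the chromosome surface protein Ki-67 used to stain dividing cells, averaged 9.65 ± 1.17 and 10.2 ± 0.82 FPKM, with a difference of 0.08 ± 0.10. The differences in the 6 libraries were 0.06 for SMC2, 0.12 for NCAPG, 0.14 for TOP2A and 0.08 for MKI67. The class median was 0.11, with 6 of 6 above 0, and in the 6 libraries 0.10, with 6 of 6. It was -0.0096 without estradiol replicate 4 alone and 0.23 without control replicate 3 alone.

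The members tied to the APC/C, the ubiquitin ligase of anaphase, had a class median close to 0. CDC20, its activator, read 49.9, 45.5, 32.6 and 49.5 FPKM in control and 45.1, 49.8, 47.5 and 34.1 FPKM in estradiol libraries. Control replicate 3 and estradiol replicate 4 were the lowest, the reverse of SMC4 and TOP2A, and the other 6 lay between 45.1 and 49.9. The difference was -0.0028 ± 0.16 (SE), and -0.03 in the 6 libraries. PTTG1, securin, which the APC/C destroys to free separase, read 24.4, 25.2, 23.2 and 26.0 FPKM in control and 27.9, 24.9, 30.0 and 23.9 FPKM in estradiol libraries. Estradiol replicate 3 was the highest and control replicate 3 the lowest, the groups overlapped, and the difference was 0.10 ± 0.09, and 0.12 in the 6 libraries.

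UBE2C, the ubiquitin-conjugating enzyme of the APC/C, averaged 24.6 ± 3.50 and 25.1 ± 3.92 FPKM (SD, n = 4 each), with a difference of 0.03 ± 0.14 (SE), and of 0.04 in the 6 libraries. CDCA3, which is itself degraded after mitosis, averaged 2.67 ± 0.390 and 2.61 ± 0.275 FPKM, with a difference of -0.02 ± 0.10, the lowest of the 49, and of -0.04 in the 6 libraries. The class median was 0.01, with 2 of 4 above 0, and in the 6 libraries 0.0062, with 2 of 4. It was below 0 without control replicate 3, estradiol replicate 2 or estradiol replicate 3, and ran from -0.08 to 0.12 over the single libraries left out. Beyond the members already named, CCNA2, CDC25C, BUB1B, CENPA and CDCA3 also share over 5% of their exon bases with another gene, and 20 of the 49 share some.

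The rest of the pathway was read from a list of 112 further mitosis genes grouped by function, of which 109 were tested and 0 were called in either direction. Of these, 83 (76.1%) had a difference above 0, against 49.5% of all tested genes, with a median of 0.04. In the 6 libraries it was 78 (71.6%), against 48.2% of all genes tested there, with a median of 0.03. This list too was drawn up with earlier results of these data known, so its counts and those of its classes are a description. Further condensin genes were above 0 in 4 of 4 (median 0.06), and in the 6 libraries in 4 of 4 (median 0.08). Further spindle, motor and cytokinesis genes were above 0 in 20 of 22 (median 0.07), and in the 6 libraries in 17 of 22 (median 0.04). CIT, a kinase of the cleavage furrow, averaged 2.13 ± 0.321 and 2.33 ± 0.320 FPKM (SD, n = 4 each), and CKAP5, a microtubule polymerase, 29.2 ± 1.92 and 30.1 ± 1.35 FPKM. The condensin subunits NCAPD3 and NCAPD2 averaged 4.21 ± 0.169 and 16.5 ± 2.26 FPKM in control and 4.67 ± 0.638 and 17.3 ± 2.76 FPKM in estradiol libraries.

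Cohesin and separase genes, which hold and release sister chromatids, were above 0 in 11 of 13 (median 0.06), and kinetochore genes in 25 of 31 (median 0.03). In the 6 libraries these were 12 of 13 (median 0.04) and 22 of 31 (median 0.03). The cohesin subunit RAD21 averaged 49.6 ± 9.74 and 51.9 ± 12.4 FPKM (SD, n = 4 each), and SGO1, the protector of centromeric cohesion, 1.40 ± 0.284 and 1.58 ± 0.203 FPKM. The centromere gene CENPW averaged 7.86 ± 0.221 and 8.74 ± 0.916 FPKM, and the checkpoint gene ZW10 25.8 ± 4.11 and 26.1 ± 4.94 FPKM. Subunits and regulators of the APC/C were above 0 in 10 of 17 (median 0.02), and in the 6 libraries in 10 of 17 (median 0.01), with CDC26 at 8.24 ± 1.09 and 9.18 ± 0.933 FPKM and ANAPC5 at 50.6 ± 3.77 and 49.9 ± 1.32 FPKM.

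Entry control genes were above 0 in 6 of 9 (median 0.04), and in the 6 libraries in 7 of 9 (median 0.02), among them BORA, an activator of PLK1, at 6.46 ± 1.73 and 7.27 ± 1.97 FPKM (SD, n = 4 each), and CKS2, a CDK1 partner, at 76.4 ± 12.9 and 79.0 ± 7.81 FPKM. Genes of the MuvB, DREAM and B-MYB complexes, listed together with those of NF-Y, were above 0 in 7 of 13 (median 0.03), but in the 6 libraries in 6 of 13 (median -0.01). Among them were LIN52 at 2.17 ± 0.145 and 2.35 ± 0.116 FPKM and E2F4 at 26.9 ± 5.78 and 26.0 ± 4.82 FPKM. DNA replication genes, which are used in S phase rather than mitosis, were above 0 in 13 of 29 (median -0.02), and in 12 of 30 in the 6 libraries (median -0.02). Of these, TYMS averaged 9.47 ± 0.238 and 10.4 ± 0.441 FPKM and PCNA 35.4 ± 3.52 and 34.4 ± 6.65 FPKM. No difference between the mitosis and replication lists was tested.

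The promoters of the same lists were searched for the same letters. TTTGAA was found in 38 of 98 promoters of the further mitosis genes (38.8%) and in 1 of 31 promoters of the replication genes (3.23%), against 28 of 41 for the members. CCAAT was found in 56 of 98 (57.1%) and 17 of 31 (54.8%), against 30 of 41. These shares are descriptions, with no test between the lists.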

How the data were processed

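The authors deposited 1 table of FPKM values, with a gene symbol per row and a column for each of the 8 libraries. Per the submitters' processing notes, the reads passed through fastp 0.20.1 and HTSeq, the latter with no version named. For the aligner, genome build, annotation and strand setting, the answer is not given in the sources used here. Per the labels' protocols, total RNA was extracted and made into libraries with a universal RNA-seq kit. A gene's FPKM values step by the worth of 1 read, and all 152348 values above 0 (100%) were rebuilt from whole reads within a relative tolerance of 1e-06, which gave the depth of each library. Such reads assume that the authors counted whole reads per gene.

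Genes with a mean of at least 1 FPKM were tested on log2(FPKM + 1) by limma 3.58.1 (R 4.3.3, trended variance, two-sided), with Benjamini-Hochberg adjustment over the 10720 genes. Differences are given on this scale and are understated for genes of low level. GC content is the median over a gene's GENCODE release 29 transcripts and was matched for 10250 of the tested genes (95.6%) and all 49 members. It served only as a gene property, as did the exon overlaps. Promoters came from RefSeq, GRCh38.p14. The limma fit and the recovery of reads were tested on simulated data. For the fit the simulated noise was independent between genes and libraries. It held no shared pattern like that of control replicate 3 and estradiol replicate 4, so it cannot show how the fit performs with that pattern.

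The members and gene lists were chosen with earlier results of these data known. Values in every library are given for the members with the highest mean or the smallest limma p of their class or with groups that do not overlap, and for NUF2, TOP2A and part of TTK, chosen after their values were seen. Of each other list, the gene with the smallest p and the one with the highest level are named. The 19 alternatives covered the pseudocount, the filter, scaling, the trend, library weights, a replicate block, libraries left out, the GC trend and limma-voom on recovered reads. The last was chosen after seeing the data. So was the fit without control replicate 3 and estradiol replicate 4, because these libraries were singled out from the values.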

Additional observations from a re-analysis of the deposited data

Results flagged for a closer look

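In each group of 4 libraries, the gap between the most extreme value and its nearest neighbour was compared with Dixon's 95% critical value for that share of the group's range. Of the 98 groups (49 members, control and estradiol), 22 (22.4%) passed it, where chance passes about 5% and 15.5% of the 21440 groups of all tested genes passed. In 21 of the 22, and in 3066 of the 3326 over all tested genes, the value belonged to control replicate 3 or estradiol replicate 4, which stood apart across all genes, so nothing particular to the members is read from them. Control replicate 3 was the high value in 10, with TTK at 7.66, CENPE at 10.5, NUF2 at 14.4, SPC25 at 3.70, KIF14 at 6.44, NUSAP1 at 7.98, CKAP2 at 19.9, SMC2 at 5.04, NCAPG at 10.3 and TOP2A at 15.2 FPKM. Estradiol replicate 4 was the high value in 10, with CCNA2 at 15.1, TTK at 8.85, NDC80 at 15.1, NUF2 at 16.1, SPC25 at 3.90, KIF11 at 10.6, KIF14 at 6.89, DLGAP5 at 24.5, SMC2 at 5.49 and TOP2A at 16.2 FPKM. FOXM1, at 20.8 FPKM, was low in control replicate 3, and AURKA, at 15.8 FPKM, was low in control replicate 1.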

How the results depend on the processing

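Under all 19 alternatives limma called 0 genes, 0 members and 0 of the further mitosis genes. The number of genes at an unadjusted p under 0.05, 26 with the main settings, ranged from 4 (filter at 5 FPKM) to 888 (array weights), and was 437 with no filter, 413 in the 6 libraries, 208 with the GC trend removed, 183 without control replicate 3 and 82 without estradiol replicate 4. The median difference of the members stayed above 0 in all 19, and over the single libraries left out it ranged from 0.037 to 0.13, with 30 to 46 members above 0. That of the further mitosis genes ranged from -0.0024 (without estradiol replicate 4) to 0.080 (without control replicate 3). The smallest adjusted p of a member under any alternative was 0.364, and 20 of the 49 members kept their sign under every alternative that kept them (NEK2 and NCAPH, among these 20, were lost to the filter at 5 FPKM). The median of the centrosomal and entry kinases, 0.14, was 0.089 to 0.16 with single libraries left out and 0.080 with array weights. With single libraries left out, the median of some classes turned below 0: kinetochore (-0.03 to 0.23), condensin and chromosome proteins (-0.0096 to 0.23), spindle checkpoint (-0.02 to 0.17), chromosomal passenger complex (-0.03 to 0.13) and APC/C (-0.08 to 0.12). FOXM1 (-0.11 to 0.08) was below 0 in 13 of the 19 alternatives. Cyclins (0.08 to 0.13), kinesins (0.05 to 0.14) and spindle and midzone proteins (0.01 to 0.14) stayed above 0. Leaving out only control replicate 3 or only estradiol replicate 4 leaves the other without its counterpart. With both left out, all class medians except FOXM1 (-0.03) were above 0, from 0.0062 (APC/C) to 0.12 (centrosomal and entry kinases). Whether replicate numbers pair the libraries is not stated in the labels. Same-numbered libraries had residual correlations of 0.62, 0.07, -0.48 and -0.74, and not every library correlated best with its own number. Control replicate 3 and estradiol replicate 4, which stood apart, correlated at 0.79 and weigh on these values. The correlations therefore cannot decide whether the libraries were paired. With the replicate number as a block, 11 genes had an unadjusted p under 0.05, 0 were called, and the members' median stayed at 0.096. Counting error was 1.06% to 9.33% for these members, beside a median coefficient of variation of 13.6% over the libraries.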

Other observations

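Without control replicate 3 and estradiol replicate 4, estradiol replicate 3 had the highest of the 6 values in 23 of the 49 members (46.9%), against 14.8% of all tested genes, and the lowest in 0, against 25.4%. Control replicate 1 had the lowest in 21 members (42.9%), against 22.6%, and control replicate 4 in 14 (28.6%), against 19.0%. With all 8 libraries estradiol replicate 4 had the highest value in 28 members (57.1%), against 22.1% of all tested genes. The members were proposed from the comparison these libraries make up, so the shares are a description.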
